A study of Rattus norvegicus with 13 samples.

Results

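Triglyceride storage and lipolysis were followed through 10 genes in the left ventricle of pregnant rats, namely G0s2, Pnpla2, Abhd5, Lipe, Mgll, Plin2, Plin5, Lpl, Angptl4 and Dgat1. They were taken by gene symbol and were represented by 16 probe sets out of 31042 tested, and by 10 genes out of 14217 that had a probe set with a single symbol. The set was chosen by the G0s2 signal, which was higher in methionine-fed than in control hearts, and so the values of that comparison are given as a description only, and no gene is tested in it. The data were Affymetrix rat whole-genome expression arrays of female Sprague Dawley rats in 3 groups: L-NAME (n = 4), methionine-fed (Met-fed, n = 4) and control (n = 5). L-NAME rats drank water with 1 g/L of the nitric oxide synthase inhibitor L-NAME, Met-fed rats drank water with 9 g/L of L-methionine, and control rats drank water with neither agent. All rats were pregnant, ate standard chow, drank their water over gestation days 1 to 20, and were killed on day 20 or 21. These days are those of the sample records. The paper that reports the series instead describes rats with repeated pregnancies, given methionine from the first of them until death. No group carried a transgene or a deletion, and each array is labelled as a separate sample, with nothing said of separate litters or cages.

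In the heart, fatty acids are stored as triglyceride in lipid droplets and released again for oxidation. Pnpla2 encodes adipose triglyceride lipase, which starts the hydrolysis, Abhd5 its coactivator, and G0s2 a small protein that binds and inhibits it. Lipe encodes hormone-sensitive lipase and Mgll monoglyceride lipase, which take the later steps. Plin2 and Plin5 coat the droplet, Dgat1 makes triglyceride from diglyceride, Lpl releases fatty acids from circulating lipoproteins at the capillary wall, and Angptl4 inhibits Lpl. Several of these genes, among them Angptl4, Plin2 and Plin5, are known targets of the fatty acid sensing PPAR receptors.

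Promoters of 7 of the 10 genes were found in the RefSeq table of rat promoters (build GRCr8), with 8 windows, since Plin2 had a pair of start sites. Those of G0s2, the gene for which the set was proposed, and of Mgll, Plin2 and Plin5, whose brightest probe sets were much lower on the L-NAME arrays, are shown as the 250 bases before the start, 5′ to 3′ on the gene's strand. For Plin2 the more upstream of its windows is shown. Capitals mark matches, on either strand, to the GC box GGGCGG, the E-box CACGTG or the nuclear receptor half-site AGGTCA.
G0s2 (chr13:107335949-107336198, minus strand): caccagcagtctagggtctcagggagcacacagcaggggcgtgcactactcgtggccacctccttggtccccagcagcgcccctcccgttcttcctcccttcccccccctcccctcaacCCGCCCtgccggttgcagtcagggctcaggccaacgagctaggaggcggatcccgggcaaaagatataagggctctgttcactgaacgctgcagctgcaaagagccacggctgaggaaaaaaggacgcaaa
Mgll (chr4:122749186-122749435, plus strand): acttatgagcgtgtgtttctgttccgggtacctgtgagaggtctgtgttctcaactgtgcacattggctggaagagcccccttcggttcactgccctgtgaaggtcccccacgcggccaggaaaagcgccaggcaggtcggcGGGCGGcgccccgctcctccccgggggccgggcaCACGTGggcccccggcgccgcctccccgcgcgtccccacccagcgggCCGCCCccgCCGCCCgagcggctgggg
Plin2 (chr5:106229019-106229268, minus strand): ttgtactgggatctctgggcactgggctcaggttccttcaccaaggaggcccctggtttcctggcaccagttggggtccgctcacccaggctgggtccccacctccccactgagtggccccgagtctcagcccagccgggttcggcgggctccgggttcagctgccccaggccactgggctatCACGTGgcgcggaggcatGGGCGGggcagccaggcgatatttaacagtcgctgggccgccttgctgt
Plin5 (chr9:1033285-1033534, minus strand): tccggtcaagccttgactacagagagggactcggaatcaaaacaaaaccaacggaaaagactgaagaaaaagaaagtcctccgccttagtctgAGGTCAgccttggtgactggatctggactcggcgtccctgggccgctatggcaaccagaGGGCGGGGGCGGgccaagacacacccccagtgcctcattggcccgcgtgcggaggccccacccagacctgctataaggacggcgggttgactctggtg
A GC box was present in 7 of the 8 windows, against 30.5% of 33469 rat promoter windows of the same length. G0s2 held 1 GC box at 131 bases before the start, and Plin5 held 2, at 92 and 98 bases, which abut in the sequence. The E-box, which can be bound by basic helix-loop-helix factors, was found in Mgll and in the upstream Plin2 window, that is in 2 of 8 windows against 5.59% of all. The half-site AGGTCA, the core of many nuclear receptor sites, was found in Plin5 and Abhd5 (2 of 8, against 14.1% of all). The direct repeat of this half-site spaced by 1 base of any kind, the usual form of a PPAR element, was in none of the 8 windows and in 0.0508% of all, and TATAAA was in Angptl4 alone (1 of 8, against 12.9%). These matches are letters only, and nothing about binding was measured.

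The L-NAME arrays stood apart from the other 9 in measures that are not specific to lipid genes. Their median signal was 34.23 to 36.89, against 25.82 to 29.23 on Met-fed and 25.7 to 27.19 on control arrays, at the same scaled mean of 150. The log2 ratio of 3′ to 5′ beta-actin signal was 2.32 to 2.70 on L-NAME, 3.32 to 3.71 on Met-fed and 3.31 to 3.67 on control arrays. Over all probe sets, 45.7% were called between L-NAME and control hearts (28.7% higher and 17% lower) and 40.3% between L-NAME and Met-fed hearts (25.4% higher and 14.9% lower), where called means a p under 0.05 in limma after Benjamini-Hochberg adjustment over all 31042 probe sets. Signals are those of the MAS5 algorithm, and a gene with several probe sets was read by the one with the highest mean signal. The change also followed signal: its median was 0.40 on the log2 scale for probe sets with a mean log2 signal under 4, -0.04 between 8 and 10 and -0.39 at 10 and over. All 8 measured cardiomyocyte markers were above the bacterial control probe sets on every array. Their summed signal was 18000 to 21000 on L-NAME, 23590 to 31470 on Met-fed and 27460 to 29820 on control arrays. Of the 8, 7 were called lower in L-NAME than in control hearts, with a median change of -0.62. All 8 lie in the range of 10 and over, where 68.7% of all probe sets were called lower. The 4 atrial markers were above the bacterial controls on every array too. Their summed signal was 1300 to 3841 on L-NAME, 1361 to 6634 on Met-fed and 1020 to 2372 on control arrays. Treatment and these array differences cannot be told apart for the L-NAME group, and in whole ventricle fewer cells of a type and less RNA per cell cannot be told apart either.

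Against control hearts, 6 of the 10 genes were called in L-NAME hearts by their brightest probe set (60%, beside 45.7% of all probe sets). Abhd5 was higher, and Plin5, Mgll, Plin2, Lpl and Pnpla2 were lower. Most of the 10 are bright. Of all probe sets with a mean log2 signal of 8 to 10, 30.5% were called higher and 34.7% lower. At 10 and over these shares were 6.84% and 68.7%. The median change of the 10 genes was -0.49. That of all probe sets, many of them dim, was 0.22. It was 0.20 at a mean log2 signal of 6 to 8, -0.04 at 8 to 10 and -0.39 at 10 and over. The groups did not overlap for 5 of the 10, against 40.3% of all probe sets. Against Met-fed hearts the same 6 genes were called in the same directions (60%, beside 40.3% of all probe sets). The median change was -0.52, beside 0.25 over all probe sets, -0.03 at a mean log2 signal of 8 to 10 and -0.33 at 10 and over. The groups did not overlap for 5 of the 10, against 39.6% of all. The 2 comparisons share the L-NAME arrays, and each shares its other arrays, control or Met-fed, with the comparison for which G0s2 was picked. The split of higher and lower calls against control, 1 and 5, became 1 and 4 with quantile normalization, 0 and 6 with each array centred on its median, and 4 and 3 with each array centred on its spike-in controls. Against Met-fed hearts the split of 1 and 5 became 1 and 4, 0 and 7, and 2 and 4 under the same 3 scalings. The 4 higher against control with spike-in centring include G0s2, as do the 7 lower against Met-fed hearts. Its calls are not read, since it was picked on the control and Met-fed arrays. These scalings placed the median change of all probe sets, L-NAME against control, at -0.01, -0.21 and 0.62.

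**Figure D1:**
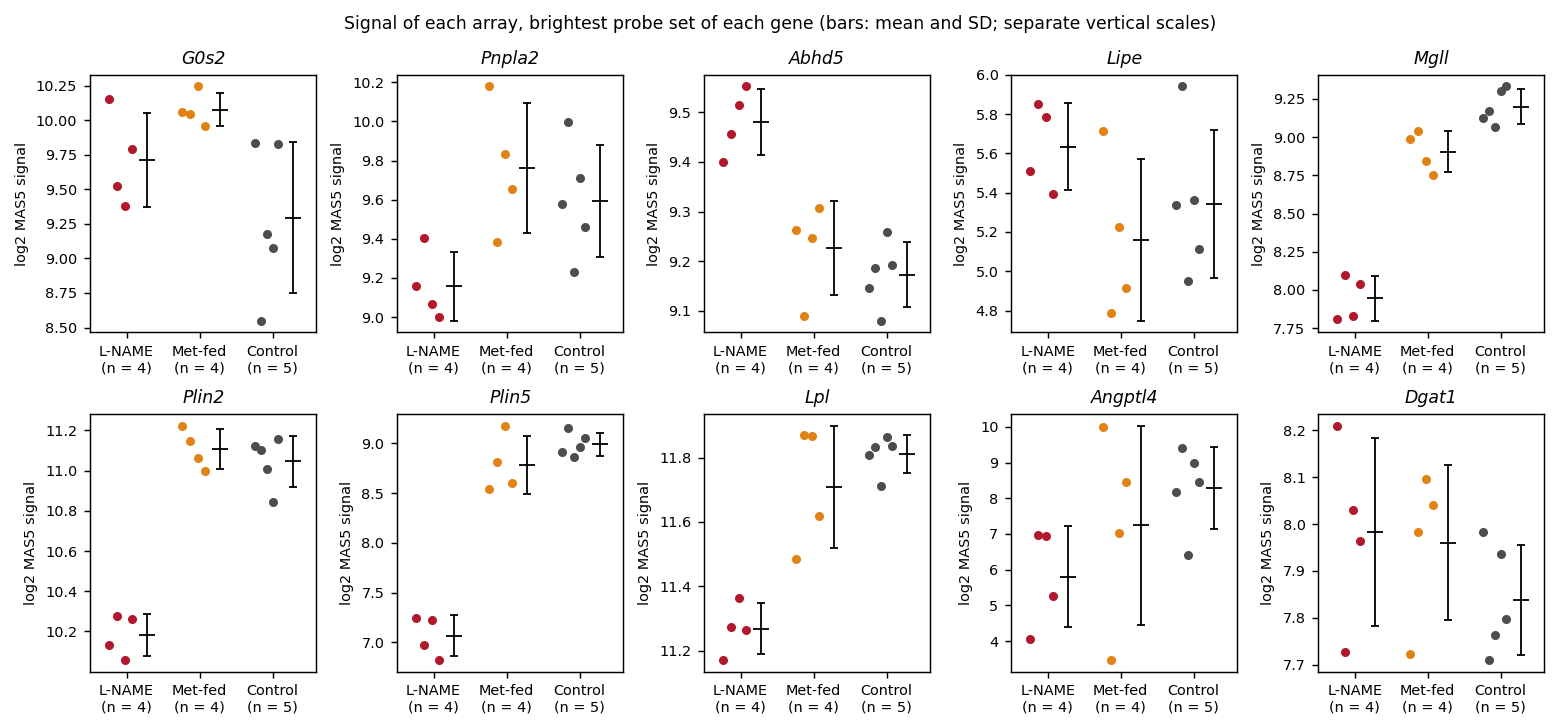
Log2 MAS5 signal of the brightest probe set of each of the 10 genes on every array (points), with group mean and SD (bars), for L-NAME (n = 4), Met-fed (n = 4) and control (n = 5) hearts. Plin5, Plin2, Mgll and Lpl lie lower on all 4 L-NAME arrays than on all other arrays, and the 4 Met-fed points of G0s2 lie between 9.95 and 10.24, above all 5 control points.

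Of the lipid droplet coats, Plin5, the perilipin of oxidative tissues, had log2 signals of 7.25, 6.97, 7.23 and 6.82 in L-NAME hearts, of 8.54, 8.82, 9.18 and 8.60 in Met-fed hearts, and of 8.91, 9.15, 8.86, 8.97 and 9.06 in control hearts. Every L-NAME array was below every other array, while the Met-fed and control arrays overlapped. The signal was 3.79-fold lower in L-NAME than in control hearts (log2 change -1.92 ± 0.13 SE, adjusted p = 1.89e-08) and 3.29-fold lower than in Met-fed hearts (-1.72 ± 0.14, adjusted p = 1.71e-07). Of probe sets with a mean log2 signal between 8 and 10, 0.459% had a lower change against control than Plin5. The call held in all 24 alternatives of scaling, filter, test and left-out array, with changes against control between -2.35 and -1.52.

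Plin2, the perilipin found on droplets in most tissues, had log2 signals of 10.13, 10.28, 10.06 and 10.26 in L-NAME hearts, of 11.22, 11.15, 11.06 and 10.996 in Met-fed hearts, and of 11.12, 11.10, 11.01, 10.84 and 11.16 in control hearts at its brightest probe set. The L-NAME arrays were again below all others. The change was -0.86 ± 0.08 against control (adjusted p = 2.62e-07) and -0.93 ± 0.08 against Met-fed hearts (adjusted p = 4.74e-07), in a signal range where the median probe set was at -0.39 against control and 8.76% of probe sets had a lower change. The other Plin2 probe set did not follow it: its log2 signals were 9.11, 9.13, 9.26 and 9.28 in L-NAME hearts, against 9.06, 8.65, 8.86, 8.75 and 9.00 in control hearts, a change of 0.33 ± 0.15 (adjusted p = 0.0838). Against Met-fed hearts it was at -0.04 ± 0.16 (adjusted p = 0.875). All 4 of these L-NAME arrays were above all 5 control arrays, the reverse of the brightest probe set. With the mean of both probe sets the change against control was -0.27 (adjusted p = 0.0437), so that against control both the size and the direction of the Plin2 difference depended on the probe set read.

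The lipase itself was lower by a smaller amount. Pnpla2 had log2 signals of 9.16, 9.40, 9.07 and 9.00 in L-NAME hearts, of 10.18, 9.39, 9.83 and 9.65 in Met-fed hearts, and of 9.58, 9.99, 9.23, 9.71 and 9.46 in control hearts. L-NAME replicate 2 overlapped the lowest Met-fed and control arrays. The change was -0.44 ± 0.16 against control (1.35-fold lower, adjusted p = 0.0313) and -0.60 ± 0.16 against Met-fed hearts (1.52-fold lower, adjusted p = 0.00783). The call against control was lost with quantile normalization (-0.39, adjusted p = 0.0609), with spike-in centring (-0.03, adjusted p = 0.889), without a variance trend or with the methods' t-test (adjusted p = 0.077 and 0.0703), without control replicate 2 or 4 and without L-NAME replicate 1, 3 or 4, where the changes lay between -0.44 and -0.34 and the adjusted p between 0.0587 and 0.0893. The call against Met-fed hearts was lost with spike-in centring (-0.38, adjusted p = 0.0923) and with the methods' t-test (adjusted p = 0.0515).

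Abhd5, the coactivator of the lipase, was the only one of the 10 genes called higher. Its log2 signals were 9.40, 9.46, 9.51 and 9.55 in L-NAME hearts, 9.26, 9.09, 9.25 and 9.31 in Met-fed hearts, and 9.15, 9.19, 9.08, 9.26 and 9.19 in control hearts. All 4 L-NAME arrays were above all others, in a gene with little spread: its SD within groups, 0.076, was larger than that of only 3.1% of probe sets of like signal. The change was 0.31 ± 0.07 against control (1.24-fold, adjusted p = 0.00202) and 0.25 ± 0.08 against Met-fed hearts (1.19-fold, adjusted p = 0.0129), but with arrays centred on their medians it turned to -0.12 and -0.11. The call against Met-fed hearts was lost with the mean of its probe sets (0.31, adjusted p = 0.0848). Its dimmer probe set was at 0.40 ± 0.23 against control (adjusted p = 0.168).

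G0s2, the inhibitor, had log2 signals of 10.16, 9.52, 9.38 and 9.79 in L-NAME hearts, of 10.06, 10.05, 10.24 and 9.95 in Met-fed hearts, and of 9.83, 8.55, 9.18, 9.07 and 9.83 in control hearts. L-NAME arrays overlapped both other groups, and the order of the means was Met-fed, 10.08 ± 0.12 (SD, n = 4), L-NAME, 9.71 ± 0.34 (n = 4), and control, 9.29 ± 0.55 (n = 5). Because G0s2 was picked for high Met-fed and low control values, the L-NAME comparisons, which use those same arrays, are not independent of the pick and are given without a test. L-NAME was 0.42 ± 0.22 above control and its change against Met-fed hearts was -0.36 ± 0.23. Against control it was -0.01 with arrays centred on their medians, 0.82 with spike-in centring and 0.55 without control replicate 1 or 5, and against Met-fed hearts it was -0.73 with arrays centred on their medians. The control group itself was wide, with replicates 1 and 5 near 9.83 and replicate 2 at 8.55, and the SD within groups of 0.398 exceeded that of 96.7% of probe sets of like signal.

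The values for which G0s2 was picked were these: the 4 Met-fed arrays, 9.95 to 10.24, were all above the 5 control arrays, 8.55 to 9.83, with a change of 0.78 ± 0.22 (1.72-fold), which lay between 0.60 and 0.96 over the 24 alternatives. The lowest of these values, 0.60, was that without control replicate 2. In this comparison 0% of all probe sets were called by limma, 10.7% had an unadjusted p under 0.05, and 2.89% had groups that did not overlap. G0s2 and Mgll were the genes of the 10 whose groups did not overlap, from which nothing is read, since the comparison was used to choose the set. The other genes, as a description, had changes of 0.17 ± 0.16 for Pnpla2, 0.05 ± 0.07 for Abhd5, -0.18 ± 0.23 for Lipe, -0.29 ± 0.09 for Mgll, 0.06 ± 0.08 for Plin2, -0.21 ± 0.13 for Plin5, -0.10 ± 0.08 for Lpl, -1.04 ± 0.99 for Angptl4 and 0.12 ± 0.11 for Dgat1. The median over the 10 genes was -0.02, beside 0.004 over all probe sets.

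**Figure D2:**
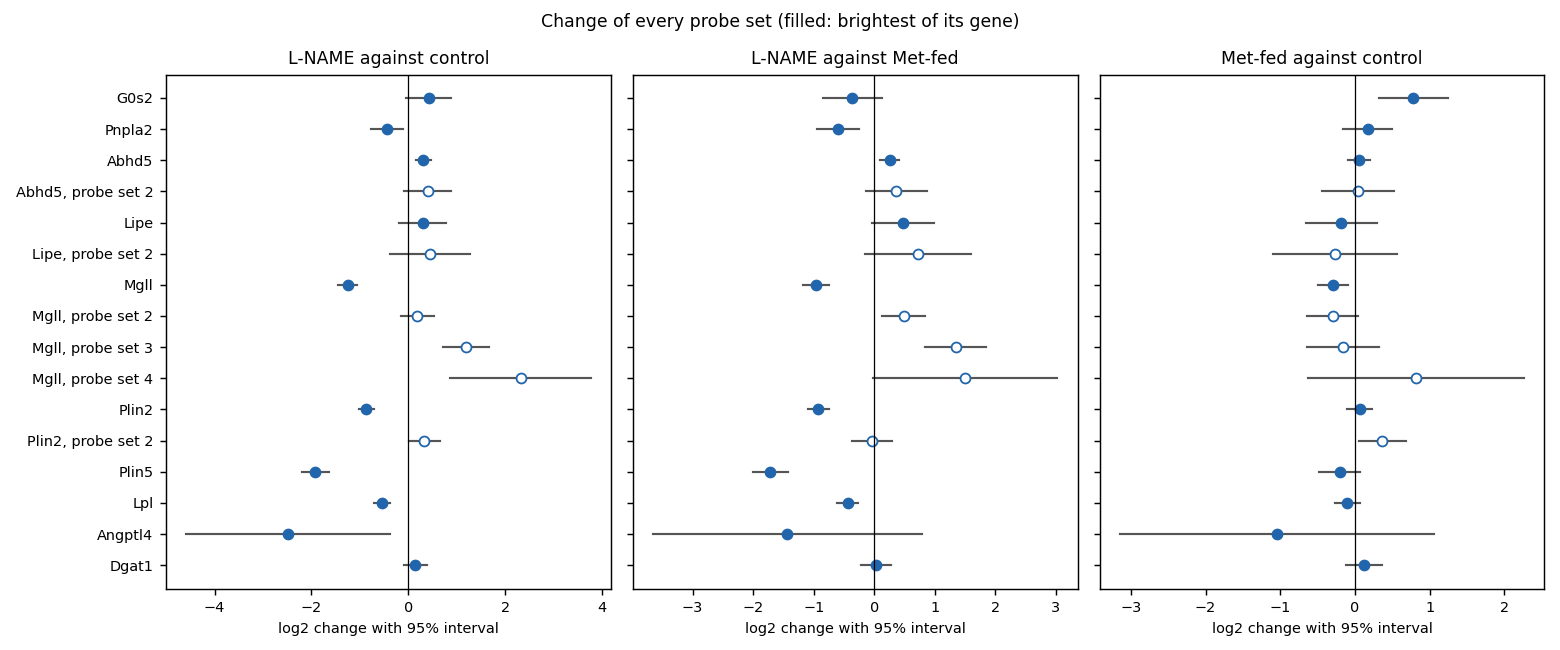
Log2 change with its 95% interval (limma) for each of the 16 probe sets in L-NAME against control, L-NAME against Met-fed and Met-fed against control hearts, with a horizontal scale of its own in each panel. Filled points are the brightest probe set of a gene. Intervals of G0s2, and all those of Met-fed against control, are drawn as a description and are not read as tests. The interval of Angptl4 is the widest in each panel, and the extra probe sets of Mgll lie to the right of the brightest one in both L-NAME panels.

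Since the G0s2 protein binds the lipase, the log2 signal of G0s2 minus that of Pnpla2 was taken within each array, a difference that a common scaling factor does not move. It was 1.00, 0.12, 0.31 and 0.79 in L-NAME hearts, -0.12, 0.66, 0.41 and 0.30 in Met-fed hearts, and 0.25, -1.44, -0.05, -0.64 and 0.37 in control hearts. The L-NAME and control arrays overlapped, with control replicates 2 and 4 well below the rest. The mean was 0.55 ± 0.41 in L-NAME (SD, n = 4) and -0.30 ± 0.75 in control hearts (n = 5), a difference of 0.85. Between L-NAME and Met-fed hearts (0.31 ± 0.33, n = 4) the difference was 0.24. The Met-fed mean was 0.62 above that of control hearts, and since all of these differences use the arrays on which G0s2 was picked, none is given a test. The unit is a log2 ratio of 2 probe sets, so only its differences between groups, not its level, have a meaning.

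The lipases of the later steps differed from each other. Lipe, hormone-sensitive lipase, had log2 signals of 5.51, 5.85, 5.78 and 5.39 in L-NAME hearts, of 5.71, 4.79, 5.22 and 4.91 in Met-fed hearts, and of 5.34, 5.94, 4.95, 5.37 and 5.12 in control hearts, with all groups overlapping. Its change was 0.29 ± 0.23 against control (adjusted p = 0.319) and 0.47 ± 0.24 against Met-fed hearts (adjusted p = 0.128), and against control it was -0.07 with quantile normalization, -0.13 with median centring and 0.70 with spike-in centring (adjusted p = 0.0223). Against Met-fed hearts it passed with spike-in centring (0.70, adjusted p = 0.0336) and without Met-fed replicate 1 (0.66, adjusted p = 0.0359). A dimmer Lipe probe set was at 0.45 ± 0.39 against control (adjusted p = 0.384).

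Mgll, monoglyceride lipase, depended on the probe set. The brightest gave log2 signals of 7.81, 8.10, 7.83 and 8.04 in L-NAME hearts, of 8.99, 9.04, 8.84 and 8.75 in Met-fed hearts, and of 9.13, 9.17, 9.07, 9.30 and 9.33 in control hearts, with no overlap between any of the groups. It was 2.39-fold lower in L-NAME than in control hearts (-1.25 ± 0.09, adjusted p = 4.91e-08) and 1.95-fold lower than in Met-fed hearts (-0.96 ± 0.10, adjusted p = 1.86e-06), and 3.65% of probe sets of like signal had a lower change against control. Another probe set read 6.68, 6.77, 6.65 and 6.70 in L-NAME hearts, against 6.59, 6.44, 6.24, 6.99 and 6.32 in control hearts, a change of 0.19 ± 0.16 (adjusted p = 0.375), and it was higher than in Met-fed hearts (0.49 ± 0.17, adjusted p = 0.0305). The next in brightness read 6.44, 6.33, 6.43 and 6.47 in L-NAME hearts, against 5.53, 5.65, 4.60, 5.23 and 5.14 in control hearts, so that it was higher in every L-NAME array (1.19 ± 0.23, adjusted p = 0.000394). The dimmest was also higher than in control hearts (2.32 ± 0.68, adjusted p = 0.0105), at log2 signals of -1.36 to 2.31 in control hearts, where signal lies around the bacterial controls. With the mean of the 4 probe sets Mgll was at 0.61 against control and 0.59 against Met-fed hearts, the reverse of the brightest one, but that mean includes the dimmest. Without the dimmest, an alternative chosen after seeing the data, it was at 0.04 (adjusted p = 0.836) and 0.29 (adjusted p = 0.112), so that no single direction can be given for the gene. Why the probe sets differ was not tested.

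**Figure D3:**
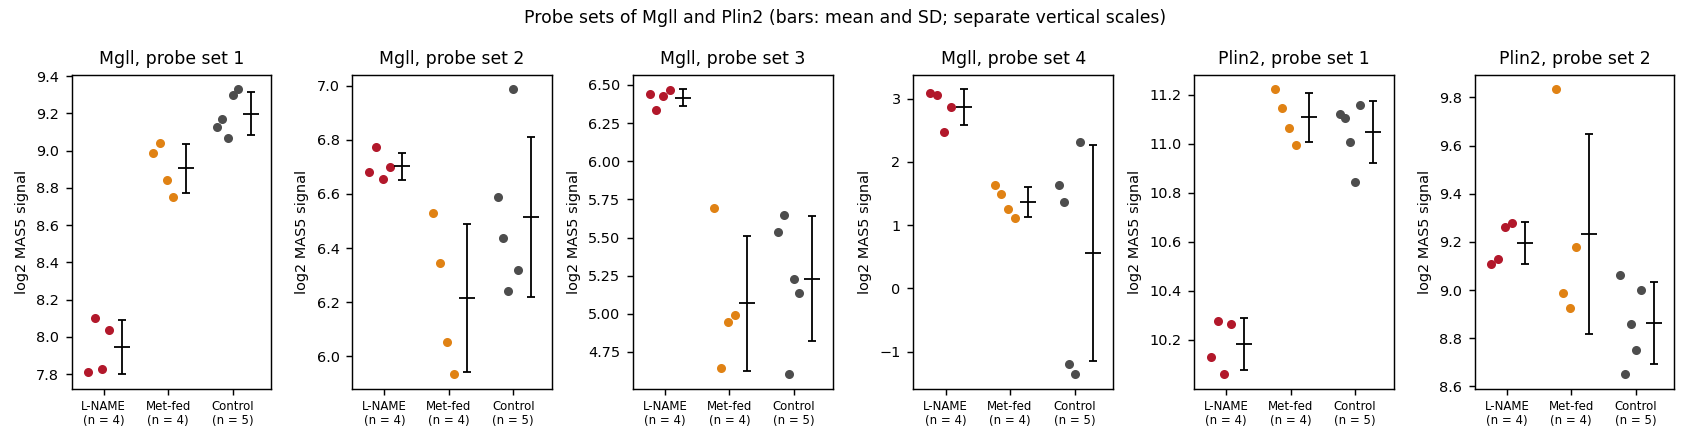
Log2 MAS5 signal of the 4 Mgll and 2 Plin2 probe sets on every array (points), with group mean and SD (bars), for L-NAME, Met-fed and control hearts, numbered from the brightest. Mgll probe set 1 is lowest and probe sets 3 and 4 are highest on the L-NAME arrays, and of the Plin2 probe sets the first alone is lower on all 4 L-NAME arrays than on all others.

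At the capillary side, Lpl had log2 signals of 11.17, 11.27, 11.36 and 11.27 in L-NAME hearts, of 11.49, 11.87, 11.87 and 11.62 in Met-fed hearts, and of 11.81, 11.83, 11.71, 11.87 and 11.84 in control hearts. All L-NAME arrays were below all others. The change was -0.54 ± 0.08 against control (1.46-fold lower, adjusted p = 2.70e-05) and -0.44 ± 0.08 against Met-fed hearts (1.36-fold lower, adjusted p = 0.000439). Lpl is among the brightest probe sets, 68.7% of which were called lower against control, and 33.1% of them had a lower change than Lpl. With quantile normalization, which removes a difference common to probe sets of like signal, it was at -0.02 against control (adjusted p = 0.762) and 0.004 against Met-fed hearts (adjusted p = 0.956), and with spike-in centring at -0.14 against control (adjusted p = 0.0556).

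Angptl4, the secreted inhibitor of Lpl, varied more from array to array than any of the other 9 genes. Its log2 signals were 4.05, 6.97, 6.96 and 5.25 in L-NAME hearts, 10.003, 3.47, 7.03 and 8.47 in Met-fed hearts, and 8.17, 9.42, 6.42, 8.98 and 8.45 in control hearts. The highest and the lowest of the 13 arrays were both Met-fed, 92.5-fold apart, and the SD within groups of 1.86 exceeded that of 99.9% of probe sets of like signal. Against control the change was -2.48 ± 0.99 (95% interval -4.59 to -0.38, adjusted p = 0.0515), and 0.141% of probe sets of like signal had a lower one. It passed the threshold in 10 of 24 alternatives, among them the limma fit of the compared groups alone (-2.48, adjusted p = 0.00556). The main fit shares 1 estimate of the spread among the groups, whose SDs were 1.42 in L-NAME, 2.79 in Met-fed and 1.15 in control hearts. Others that passed were those without control replicate 3 (-2.95, adjusted p = 0.0283), Met-fed replicate 1 (-2.48, adjusted p = 0.0274), Met-fed replicate 2 (-2.48, adjusted p = 0.00785) and L-NAME replicate 2 or 3 (-2.87 and -2.86, adjusted p = 0.0459 and 0.0458). Against Met-fed hearts the change was -1.44 ± 1.05 (adjusted p = 0.301), and -2.69 without Met-fed replicate 2 (adjusted p = 0.0137). Without that array the Met-fed mean was 0.21 above that of control hearts, in place of -1.04.

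Dgat1, which makes triglyceride, had log2 signals of 8.21, 7.73, 8.03 and 7.96 in L-NAME hearts, of 7.72, 7.98, 8.10 and 8.04 in Met-fed hearts, and of 7.98, 7.71, 7.76, 7.94 and 7.80 in control hearts. The groups overlapped. The changes were 0.14 ± 0.11 against control (95% interval -0.09 to 0.38, adjusted p = 0.321) and 0.02 ± 0.12 against Met-fed hearts (-0.23 to 0.27, adjusted p = 0.904). Under median centring they were -0.28 and -0.35, of which that against Met-fed hearts passed (adjusted p = 0.0466), and under spike-in centring that against control was 0.55 (adjusted p = 0.00252).

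**Figure D4:**
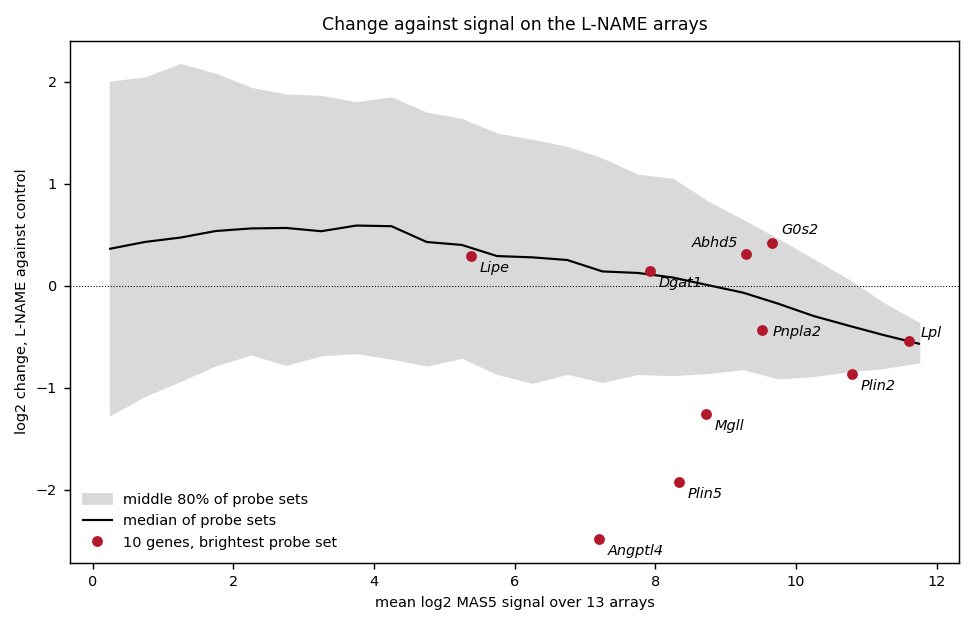
Log2 change in L-NAME against control hearts plotted against mean log2 MAS5 signal over 13 arrays, with the median (line) and the middle 80% (band) of all probe sets in steps of signal, and the brightest probe set of the 10 genes as points. Plin5, Mgll and Angptl4 lie below the band, Plin2 at its lower edge, and Lpl inside it.

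Among the 9 Met-fed and control arrays, which did not stand apart in the measures above, the 10 genes were compared pairwise by their deviations from the group means (45 pairs). Pnpla2 and Lipe moved together, with Pearson r = 0.974 (exact permutation p = 0.000347, the smallest the 2880 permutations can give, adjusted p = 0.0156) and Spearman rho = 0.933 (exact permutation p = 0.000694, adjusted p = 0.0312), and r was 0.956 without the 2 arrays farthest from the median of Pnpla2. It was 0.960 to 0.983 without each array in turn. Control replicate 2 and Met-fed replicate 1 were highest for both genes within their groups, control replicate 3 and Met-fed replicate 2 lowest. The dimmer Lipe probe set did not follow Pnpla2 (r = -0.19, exact permutation p = 0.744). None of the other 44 pairs passed. The next, Abhd5 with Angptl4 (r = 0.858) and Pnpla2 with Angptl4 (r = 0.832), both had an adjusted p of 0.183, and G0s2 with Pnpla2 gave r = -0.37 (exact permutation p = 0.357, adjusted p = 0.957). Because Lipe and Pnpla2 are also expressed in fat, adipocyte markers were read on the same arrays: 9 of 10 were measured, 4 were above the bacterial controls on all L-NAME arrays and 3 on all Met-fed and on all control arrays, and their summed signal was 2790 to 3217 in L-NAME, 3602 to 4027 in Met-fed and 3736 to 4804 in control hearts. Most of that sum was Fabp4, at 2105 to 2309 in L-NAME, 2633 to 2947 in Met-fed and 2638 to 3749 in control hearts. It therefore does not show the dim markers: against control, 5 of the 9 markers had a change above 0 and 4 below, with a median of 0.20. Lep lay between 0.09 and 2.04 in signal on all arrays. The signal of Adipoq, a hormone gene of fat cells, was 2.21, 110, 2.66 and 175.2 in L-NAME hearts, 1.15, 1.83, 134.5 and 33.2 in Met-fed hearts, and 7.22, 0.29, 249.2, 205.6 and 9.94 in control hearts. Adipoq was high on Met-fed replicates 3 and 4 and control replicates 3 and 4, and low on the other arrays of those groups, where the highest Lipe value of each group lay. The lowest Lipe value of the Met-fed group lay on one of the low arrays, and that of the control group on control replicate 3. The part of fat in the correlation was not tested.

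**Figure D5:**
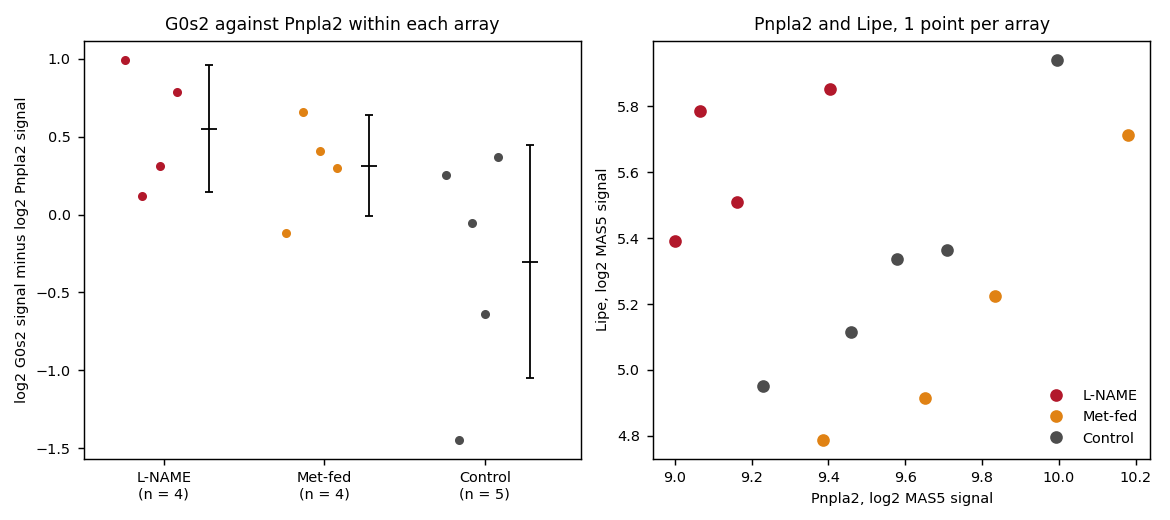
Left, log2 G0s2 signal minus log2 Pnpla2 signal on each array with group mean and SD, for L-NAME (n = 4), Met-fed (n = 4) and control (n = 5) hearts. Right, log2 Lipe against log2 Pnpla2 signal, 1 point per array, where the Met-fed and the control arrays each run upward and the 4 L-NAME arrays lie at low Pnpla2 (9.00 to 9.40) with Lipe between 5.39 and 5.85.

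The probe sets whose pattern was most like G0s2 were sought among 11935 others with a single symbol and at least the median signal, over all 13 arrays, of which the 4 L-NAME arrays stand apart. By log2 signal, the closest were Sdf2l1 (Pearson r = 0.907), Adam19 (0.869), Katna1 (0.812), Stt3a (0.808) and Saraf (0.8). The mean log2 signal of Sdf2l1 was 7.70 in L-NAME, 8.14 in Met-fed and 7.26 in control hearts, the same order as G0s2. All 5 genes of this list had that order, which is not independent of how they were sought. By deviations from the group means, the closest were Tnfaip8l1 (0.91), Ubap2l (0.903), Slc35a4 (0.891), Actg1 (0.86) and C2h1orf52 (0.859). The 2 lists, of 5 genes each, had no gene in common, and these correlations are a description without a test.

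Around the 10 genes, 96 of 110 listed genes of triglyceride and fatty acid handling were measured. Against control, 17 were called higher and 32 lower in L-NAME hearts (51% of the 96, beside 45.7% of all probe sets), with a median change of -0.07, and against Met-fed hearts 17 higher and 29 lower (47.9%, beside 40.3%), with a median of -0.06. In Met-fed against control hearts their median change was -0.03, given as a description. The split against control was 18 and 29 with quantile normalization, 8 and 51 with median centring, 33 and 16 with spike-in centring and 22 and 21 with the mean of all probe sets of a gene. Against Met-fed hearts it was 13 and 28, 8 and 47, 23 and 18, and 20 and 19.

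Of 14 further lipid droplet genes, 2 were called higher and 4 lower against control, and likewise against Met-fed hearts (42.9% in each, beside 45.7% and 40.3% of all probe sets). Cidea, a droplet fusion protein, was 2.01-fold higher than in control hearts (1.01 ± 0.23, adjusted p = 0.00159), and Hsd17b11 1.80-fold (0.85 ± 0.10, adjusted p = 3.84e-06). Fitm2, which helps droplets form at the endoplasmic reticulum, was 2.43-fold lower (-1.28 ± 0.11, adjusted p = 1.64e-07), Ldaf1, a droplet assembly factor, 2.27-fold lower (-1.18 ± 0.14, adjusted p = 4.66e-06), and Fitm1 1.83-fold lower (-0.87 ± 0.13, adjusted p = 5.75e-05). Against control, these 5 held in all 24 alternatives. Plin4 was at -0.28 ± 0.11 (adjusted p = 0.0372), a call lost in 8 alternatives (5 of them with 1 array left out) and at 0.12 with spike-in centring, Plin3 at -0.06 ± 0.11 (adjusted p = 0.678), and Hilpda, another inhibitor of Pnpla2, at 0.55 ± 0.22 (adjusted p = 0.0541), which passed in 8 alternatives, 5 of them with 1 array left out (lowest adjusted p of these 0.0215, without Met-fed replicate 1).

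Of 18 genes of triglyceride synthesis, 5 were called higher and 6 lower against control, with a median of -0.16, and the same counts held against Met-fed hearts (61.1% in each, beside 45.7% and 40.3% of all probe sets). The acyltransferases went both ways: Agpat5 was 2.03-fold higher (1.02 ± 0.11, adjusted p = 2.15e-06) and Agpat4 2.57-fold higher (1.36 ± 0.21, adjusted p = 5.43e-05), as was Agpat2 (0.74 ± 0.17, adjusted p = 0.00145, though 0.32 and 0.13 with median centring), while Agpat3 was 2.38-fold lower (-1.25 ± 0.21, adjusted p = 0.000145), though at 0.38 with the mean of its probe sets. Gpam, the first step of the pathway, was 2.46-fold lower at a dim probe set (-1.30 ± 0.26, adjusted p = 0.000644), a call lost with the mean of its probe sets (-0.45, adjusted p = 0.23). Acsl1, which activates fatty acids, was at -0.50 ± 0.09 (adjusted p = 0.000386) but at 0.35 with the mean of its probe sets, and the call was lost with quantile normalization (-0.03, adjusted p = 0.719) and spike-in centring (-0.09, adjusted p = 0.297). Dgat2 was at -0.17 ± 0.27 (adjusted p = 0.656), and at 0.24 with spike-in centring.

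Of 8 other lipases, 2 were called against control and 3 against Met-fed hearts, each of them lower (25% and 37.5%, beside 45.7% and 40.3% of all). Abhd6, which like Mgll splits monoglyceride, was 1.99-fold lower than in control hearts (-0.99 ± 0.13, adjusted p = 1.03e-05), though at 0.98 with the mean of its probe sets, and Nceh1 was 1.34-fold lower (-0.42 ± 0.08, adjusted p = 0.00064), a call lost with spike-in centring (-0.02, adjusted p = 0.891). Lipa, the lysosomal acid lipase, was lower than in Met-fed hearts (-0.33 ± 0.11, adjusted p = 0.0208), a call lost with spike-in centring (-0.10, adjusted p = 0.541), without a variance trend (adjusted p = 0.0565), without L-NAME replicate 4 (-0.28, adjusted p = 0.0662) and without Met-fed replicate 3 (-0.28, adjusted p = 0.0668). Of 17 genes of Lpl handling and fatty acid uptake, 2 were called higher and 5 lower against control (41.2%), and 2 higher and 4 lower against Met-fed hearts (35.3%). Vldlr, a receptor for triglyceride-rich lipoproteins, was 1.61-fold higher (0.69 ± 0.14, adjusted p = 0.000622) and Furin, a protease, 1.39-fold higher (0.47 ± 0.11, adjusted p = 0.00166), while Lrp1 was 1.73-fold lower (-0.79 ± 0.20, adjusted p = 0.00353). The call of Vldlr was lost with median centring (0.27, adjusted p = 0.177), as was that of Furin (0.05, adjusted p = 0.77), and that of Lrp1 with spike-in centring (-0.39, adjusted p = 0.153). Fabp3, the fatty acid binding protein of heart muscle, was at -0.55 ± 0.08 (adjusted p = 2.67e-05) and Fabp4 at -0.48 ± 0.08 (adjusted p = 0.000175), but both were at 0.008 with quantile normalization, and Fabp4 was at -0.07 with spike-in centring (adjusted p = 0.452). Gpihbp1, which holds Lpl at the endothelium, was at -0.63 ± 0.27 (adjusted p = 0.065), and passed in 6 alternatives, among them median centring (-1.06, adjusted p = 0.00253). The fatty acid transporter Cd36 was at 0.08 ± 0.14 (adjusted p = 0.668), at 0.41 with quantile normalization (adjusted p = 0.023) and at -0.34 with median centring (adjusted p = 0.046).

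Of 16 genes of lipolytic signaling, 5 were called higher and 2 lower against control, and likewise against Met-fed hearts (43.8% in each, beside 45.7% and 40.3% of all probe sets). Prkaa2, the AMP-activated kinase subunit that prevails in muscle, was 4.31-fold higher than in control hearts (2.11 ± 0.25, adjusted p = 3.65e-06) and 2.97-fold higher than in Met-fed hearts (1.57 ± 0.26, adjusted p = 0.00016), and held in all 24 alternatives of each comparison. Insr, the insulin receptor, was 2.24-fold higher than in control hearts (1.17 ± 0.16, adjusted p = 2.29e-05) and Irs2, its substrate, 1.71-fold (0.77 ± 0.14, adjusted p = 0.000245), though Irs2 was at 0.35 with median centring (adjusted p = 0.0587). Prkar1a, a regulatory subunit of protein kinase A, was at -0.46 ± 0.08 (adjusted p = 0.000198), a call lost with quantile normalization (-0.09, adjusted p = 0.199) and spike-in centring (-0.06, adjusted p = 0.552), and Prkaa1 at -0.38 ± 0.08 (adjusted p = 0.0012) but at 0.91 with the mean of its probe sets and 0.03 with spike-in centring.

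PPAR receptors and their targets were called in 69.6% of cases against control, with 3 of 23 higher and 13 lower (median -0.54), and 3 higher and 10 lower against Met-fed hearts (56.5%, median -0.29), beside 45.7% and 40.3% of all probe sets. Ucp2, a mitochondrial carrier, was 2.74-fold lower than in control hearts (-1.46 ± 0.10, adjusted p = 3.13e-08), Cpt1a, which brings fatty acids to the mitochondrion, 2.50-fold lower (-1.32 ± 0.11, adjusted p = 1.03e-07), though at -0.20 with the mean of its probe sets (adjusted p = 0.456), and Acot2, a mitochondrial thioesterase, 1.95-fold lower (-0.97 ± 0.09, adjusted p = 3.69e-07). Of the receptors, Pparg was at -0.54 ± 0.15 (adjusted p = 0.00611), a call lost with spike-in centring (-0.14, adjusted p = 0.493). Ppard was at -0.46 ± 0.10 (adjusted p = 0.000968), a call lost with spike-in centring (-0.05, adjusted p = 0.675) and turned with the mean of its probe sets (0.22, adjusted p = 0.589). Ppara was at 0.30 ± 0.33 (adjusted p = 0.487), and at -0.19 with quantile normalization. Slc25a20, the carnitine carrier, was 1.63-fold higher (0.71 ± 0.13, adjusted p = 0.000269; 0.28 and 0.0848 with median centring), and Cpt1b, the muscle form of the transferase, was at 0.23 ± 0.08 (adjusted p = 0.0304), a call lost in 8 alternatives (6 of them with 1 array left out) and at -0.20 with median centring. Rxra was called higher at a probe set with a mean log2 signal of 1.76 in L-NAME and -1.21 in control hearts, around or below the bacterial controls. The cardiomyocyte markers, as given above, were lower too, and so were 4 of 5 endothelial markers (median -0.59 against control), whose summed signal was 3931 to 4356 in L-NAME, 4987 to 5734 in Met-fed and 5738 to 6432 in control hearts. Of 8 leukocyte and macrophage markers, 4 were called lower and 1 higher than in control hearts (median -0.38), at a summed signal of 1319 to 1889 in L-NAME, 2153 to 2427 in Met-fed and 2451 to 2663 in control hearts. Of 6 fibroblast markers 2 were called lower and 0 higher than in control hearts, with 2 of the 6 changes above 0 and 4 below. In the same comparison 0 of 4 atrial markers were called, and 1 of 6 skeletal muscle and 1 of 3 blood markers were called lower. Most of the cardiomyocyte, endothelial, leukocyte and fibroblast markers are bright. Of all probe sets, 17% were called lower against control, but 34.7% of those at a mean log2 signal of 8 to 10 and 68.7% at 10 and over. The part of any of these cell types in the changes of the lipid genes was not tested.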

How the data were processed

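The authors' deposited values were MAS5 signal intensity per probe set on 13 Affymetrix arrays, 1 per labelled sample, already scaled: with 2% trimmed at each end, the mean of every array was 150. The MAS5 version is not given in the sources used here. They were taken to log2 and used without further scaling. Of 31099 probe sets, 57 manufacturer controls were left out. Of the 31042 tested, 20826 had 1 gene symbol in the platform annotation, 436 several and 9780 none. The 3 comparisons came from limma 3.58.1, run in R 4.3.3 (trended variance, all arrays in 1 fit, no covariate) with Benjamini-Hochberg adjustment over all 31042, tested on simulated data. Figures were drawn with matplotlib 3.10.9. The probe set with the highest mean signal stood for its gene, with the others beside it, and of each related list up to 3 genes a direction with the smallest p were named; Dgat2, Plin3, Plin4, Hilpda, Gpihbp1, Cd36 and the 3 PPAR receptors were added after their values were seen. The members and lists were chosen with earlier results of these data known. The number of arrays limits the precision, and p-values measure the spread between these samples, which may be technical in part. Alternatives were other scalings, 16 or 50 added before log2, testing bright probe sets alone, other variance models and tests, probe set means, a replicate block and leaving out each array.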

Additional observations from a re-analysis of the deposited data

Results flagged for a closer look

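Among 174 groups of 4 or 5 arrays (the brightest probe sets of the 10 genes and of the named related genes, and the G0s2 and Pnpla2 difference), 11 had 1 array whose gap to its nearest neighbour took up most of the group's range, and chance alone flags about 1 group in 20 under this rule. None was of the 10 genes. On the L-NAME arrays, replicate 3 was highest for Fitm2 (log2 signal 10.15, the next 9.81) and for Fitm1 (8.64, the next 8.18), replicate 1 was highest for Ppara (4.97, the next 4.01), lowest for Prkaa1 (8.87, the next 9.02) and for Furin (9.78, the next 9.95), and replicate 4 was lowest for Vldlr (8.80, the next 9.12) and for Ehhadh (5.47, the next 6.24). Met-fed replicate 3 was highest for Acot2 (11.77, the next 11.64). Control replicate 5 was lowest for Prkaa2 (6.47, the next 7.61) and for Dgat2 (5.19, the next 6.39), and control replicate 3 for Pparg (6.18, the next 6.78).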

How the results depend on the processing

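Counts of called members and related genes stayed within 1.5 times their values in all 24 alternatives. Leaving out each array, 5 to 7 members passed against control. Without control replicate 1 or 5 they include G0s2, which is not read as a call because of how it was picked. Quantile normalization put Lipe at -0.069, Fabp3 at 0.0085, Fabp4 at 0.0080 and Ppara at -0.19 against control, and Lpl at 0.0037, Dgat1 at -0.086, Fabp4 at 0.069, Acsl1 at 0.0086 and Ppara at -0.15 against Met-fed hearts. Median centring put G0s2 at -0.0066, Abhd5 at -0.12, Lipe at -0.13, Dgat1 at -0.28, Cpt1b at -0.20, Ehhadh at -0.10, Cd36 at -0.34 and Ppara at -0.12 against control, and Abhd5 at -0.11, Dgat1 at -0.35, Cpt1b at -0.093, Plin3 at -0.32, Cd36 at -0.36 and Ppara at -0.042 against Met-fed hearts. Spike-in centring put Prkaa1 at 0.025, Lipa at 0.18, Plin3 at 0.34, Plin4 at 0.12 and Dgat2 at 0.24 against control, and Plin4 at 0.041 and Dgat2 at 0.22 against Met-fed hearts. Probe set means put Mgll at 0.61, Prkaa1 at 0.91, Abhd6 at 0.98, Agpat3 at 0.38, Acsl1 at 0.35, Ppard at 0.22 and Lpin2 at 0.78 against control, and Mgll at 0.59, Prkaa1 at 0.85, Abhd6 at 0.42, Cpt1a at 0.00092, Agpat3 at 0.59, Acsl1 at 0.52, Ppard at 0.29 and Lpin2 at 0.55 against Met-fed hearts. Without its dimmest probe set, chosen after seeing the data, the Mgll mean was 0.040 against control and 0.29 against Met-fed hearts. All of these turned the direction, and the cause was not tested. As each array was left out, Plin3 lay between -0.12 and 0.014 against control, and against Met-fed hearts Dgat1 lay between -0.057 and 0.11, Plin3 between -0.012 and 0.12, Dgat2 between -0.15 and 0.14 and Cd36 between -0.037 and 0.11. The Pnpla2 and Lipe correlation, whose alternatives were chosen after seeing the data, was -0.19 with the other Lipe probe set. With the replicate block, 7 members passed against control and 6 against Met-fed hearts. G0s2 (0.55) was among the 7, and its call is not read because of how it was picked. The numbers do not pair the arrays: same-numbered arrays correlated at -0.211 to 0.236, and 3 of 12 matched their own number best. Probe set means could not be tried for G0s2 minus Pnpla2, which have 1 probe set each.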
